A study of Mus musculus with 8 samples.

Results

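Pdgfra, Pdgfrb, Dpt, Dcn, Lum, Fn1, Postn, Sparc, Eln and Fbn1, which encode receptors and matrix proteins of dermal fibroblasts, were taken by symbol from the 18770 genes of the deposited expression table. All 10 were listed there, and all 10 passed the filter on low values (3 normalized counts in 4 of the 8 libraries) that left 15964 genes to be tested. The skin came from wildtype C57BL/6 mice aged 7 to 8 weeks whose back had been depilated. AP mice were given alpinetin, a plant flavonoid, on the depilated area once a day (20 µl of a 3 mg/ml solution in 65% ethanol). VC mice were given 20 µl of the 65% ethanol alone, and depilation and solvent were thus common to both groups. The libraries, 4 in each group, hold mRNA of dermis and hair follicles at D4 after depilation, a preparation meant to be free of epidermis from outside the follicles. The libraries carry the names VC.1 through VC.4 for the solvent and AP.1 through AP.4 for alpinetin. A figure legend of the study gives 4 mice per group for values of this kind, though no label ties a library to a given mouse, and p-values describe the spread between these samples. Levels are normalized counts, that is the reads of a gene after division by a size factor that the authors set for each library with DESeq2. Genes named as most abundant have the highest mean of normalized counts over all 8 libraries, without regard to transcript length. The groups were compared by limma on log2(normalized counts + 1), with p adjusted over every gene tested (Benjamini-Hochberg), and a gene was called, or named higher or lower, at an adjusted p under 0.05.

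Fibroblasts build the dermis around hair follicles, and the hair cycle is accompanied by remodelling of this matrix. The PDGF receptors are tyrosine kinases through which fibroblasts and, for the beta receptor, pericytes respond to platelet-derived growth factors. Decorin and lumican are small leucine-rich proteoglycans that bind collagen fibrils, and dermatopontin binds decorin. Fibronectin is an adhesive glycoprotein, while periostin and SPARC are matricellular proteins, which act on cells and on matrix assembly more than as scaffold. Elastin is deposited on microfibrils of fibrillin-1 to form elastic fibres.

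The depth of the libraries differed between the groups. Reads on listed genes numbered 6454563 to 7264151 per VC library and 8507783 to 11190113 per AP library. Mitochondrially encoded genes held 54.3, 44.9, 42.1 and 52.3% of these reads from VC.1 through VC.4 and 11.1, 7.85, 5.32 and 10.3% from AP.1 through AP.4. The group means were 48.4% ± 5.81 and 8.66% ± 2.63 (SD, n = 4 each; p = 0.0286 in an exact two-sided permutation test, the smallest value 4 against 4 libraries can give). Of the 12 mitochondrially encoded genes tested, 10 were lower in the AP group, between 6 (without AP.2 or AP.3) and 11 (without VC.1) when a library was left out. Without these genes, 3080758 to 3762217 reads were left per VC library and 7561598 to 10594787 per AP library. The thinnest count among the 10 genes was the 69 reads of Pdgfrb in VC.1, and the deepest the 76851 reads of Sparc in AP.1. The part of depth and of the mitochondrial share in the values that follow was not tested.

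The tissue label was compared with markers of the cell types that such a sample can hold. Dermal fibroblast markers were present in every library. Col1a1, Col1a2 and Col3a1, which are also counted among the collagens, carried most of the sum of 7 such genes, and Thy1, Twist2, Prrx1 and Mmp2 are also counted among the other fibroblast markers. The sum was 106261, 70887, 74894 and 203606 normalized counts from VC.1 through VC.4, and 237043, 180178, 127859 and 89013 from AP.1 through AP.4. None of the 7 was called by limma, 1 had an unadjusted p under 0.05, and DESeq2, edgeR and limma-voom each called 1. The log2 fold changes of 4 of the 7 were above 0. The gene with the unadjusted p under 0.05 was Twist2, with lower values in the AP group. Its log2 fold change was -1.18 (standard error 0.35, adjusted p = 0.0532 from limma and 0.00988 from DESeq2). Without AP.1 or VC.2, limma called 1 as well, and with total reads it called 5. Suprabasal keratinocyte markers were present although the epidermis between follicles had been removed. Their 12 genes, led by Krt10 and none of them at 0, summed to 6412, 13127, 9076 and 5903 normalized counts from VC.1 through VC.4, and 44029, 41856, 122726 and 172510.0 from AP.1 through AP.4, and 10 of the 12 were higher in the AP group. In bulk tissue, more cells of a type and more RNA per cell cannot be told apart, nor can fewer cells and less RNA per cell. Krt10, a keratin of differentiating epidermis, had a log2 fold change of 3.85 (adjusted p = 0.00367, standard error 0.50). Of 8 basal keratinocyte markers, led by Krt14, 4 were higher, with sums of 29989, 84352, 53778 and 25628 normalized counts from VC.1 through VC.4, and 58278, 57300.1, 106633 and 150219 from AP.1 through AP.4. The 4 higher genes were Itga6, Itgb4, Col17a1 and Dst, while Krt5, Krt14, Krt15 and Trp63 were not called. Krt14 had a log2 fold change of 1.02 (adjusted p = 0.212, standard error 0.53). Without AP.3, AP.4, VC.1 or VC.4, 2 of the 8 were called.

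Skeletal muscle markers separated AP.1 from the other AP libraries. The 9 genes, led by Acta1 and none of them at 0, summed to 44878, 70269, 35805 and 35438 normalized counts from VC.1 through VC.4, and 71647, 8928, 5339 and 11248 from AP.1 through AP.4. Only Tnnc2 was called lower with all 8 libraries, whereas all 9 genes were called without AP.1 and none with any other single library left out. Acta1, the actin of skeletal muscle fibres, had a log2 fold change of -1.92 (adjusted p = 0.0628, standard error 0.61) with all libraries and -2.62 without AP.1 (adjusted p = 0.00243; 0.00243 to 0.196 over its alternatives). Adipocyte markers gave no call among 8 genes by limma, DESeq2, edgeR or limma-voom, and 2 had an unadjusted p under 0.05, while 5 were called with total reads and 1 with the length trend removed. Of 7 leukocyte markers, Cd207 was higher, with no call without AP.3 or AP.4 and 2 without VC.2 or VC.3. The log2 fold changes of 5 of the 7 were below 0, and Lyz2, the most abundant, had -1.08 (adjusted p = 0.0786, standard error 0.37), with -0.21 by total reads and adjusted p-values of 0.0147 to 0.557 over its alternatives. The leukocyte list summed to 9360.3 ± 4891 normalized counts for VC and 4729 ± 1178 for AP (SD, n = 4 each). Among 5 red blood cell markers, Hbb-bs was higher, a call lost without AP.2, AP.4 or VC.1. Hba-a2, of the same list, had a log2 fold change of -0.81 (adjusted p = 0.0901, standard error 0.29), and DESeq2 gave -0.83 (adjusted p = 0.0432) and total reads 0.049. Wif1, Alx4 and Rspo3 were lower among 9 dermal papilla markers, with no call without AP.2 or AP.4. With total reads none of the 3 was called (log2 fold changes of -0.37, -0.51 and -0.59; adjusted p = 0.396, 0.313 and 0.218), and the median of the 9 moved from -0.92 to -0.053. Total reads gave 12 of 12 suprabasal, 8 of 8 basal keratinocyte, 0 of 9 skeletal muscle, 4 of 7 leukocyte and 3 of 5 red blood cell markers as calls. Over all 15964 genes, this setting called 8717. Alas2, a red blood cell marker, was at 0 in at least 1 library. The part of these cell types in the levels of the 10 genes was not tested.

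By limma, none of the 10 genes was called, while 10.3% of all 15964 genes tested were (1011 genes higher and 639 lower in the AP group). At an unadjusted p under 0.05, 6 of the 10 genes passed, against 30.3% of all genes. Their log2 fold changes (AP over VC, on the log2(normalized counts + 1) scale) were above 0 for 6 genes and below 0 for 4, with a median of 0.37 beside 0.058 over all genes. The VC and AP libraries overlapped in all 10 genes, whereas 19.2% of all genes had groups that did not overlap. edgeR and limma-voom also called none of the 10, and DESeq2 called 3 (Dpt lower, Fn1 and Eln higher), where it called 17.4% of all genes with an adjusted p. Under the study's criteria, applied to the limma values (unadjusted p below 0.01, change of more than 1.5-fold), Dpt was the 1 gene that passed, against 13.6% of all genes tested. Leaving out AP.1 brought 1 call, of Dpt, beside 1873 calls among all 15719 genes then tested. Leaving out VC.4 brought 1 call, of Pdgfrb, beside 1196 calls among 15754 genes. The number of calls over all genes fell from 1650 to 839 without VC.1, 540 without AP.2, 307 without AP.3 and 404 without AP.4. Scaling by total reads, mitochondrial reads included, moved the median of all genes from 0.058 to 0.90, with 8648 genes higher and 69 lower in place of 1011 and 639, and called 8 of the 10 genes higher (all but Dpt and Postn). Total reads called 8717 of all 15964 genes, and counts of calls with total reads stand beside this share. The ranges of adjusted p-values over alternatives include this setting. Relative to the median of all genes, the 10 log2 fold changes lay between -0.90 (Dpt) and 1.03 (Pdgfrb) with the authors' scaling and between -0.88 and 1.05 with total reads.

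**Figure D1:**
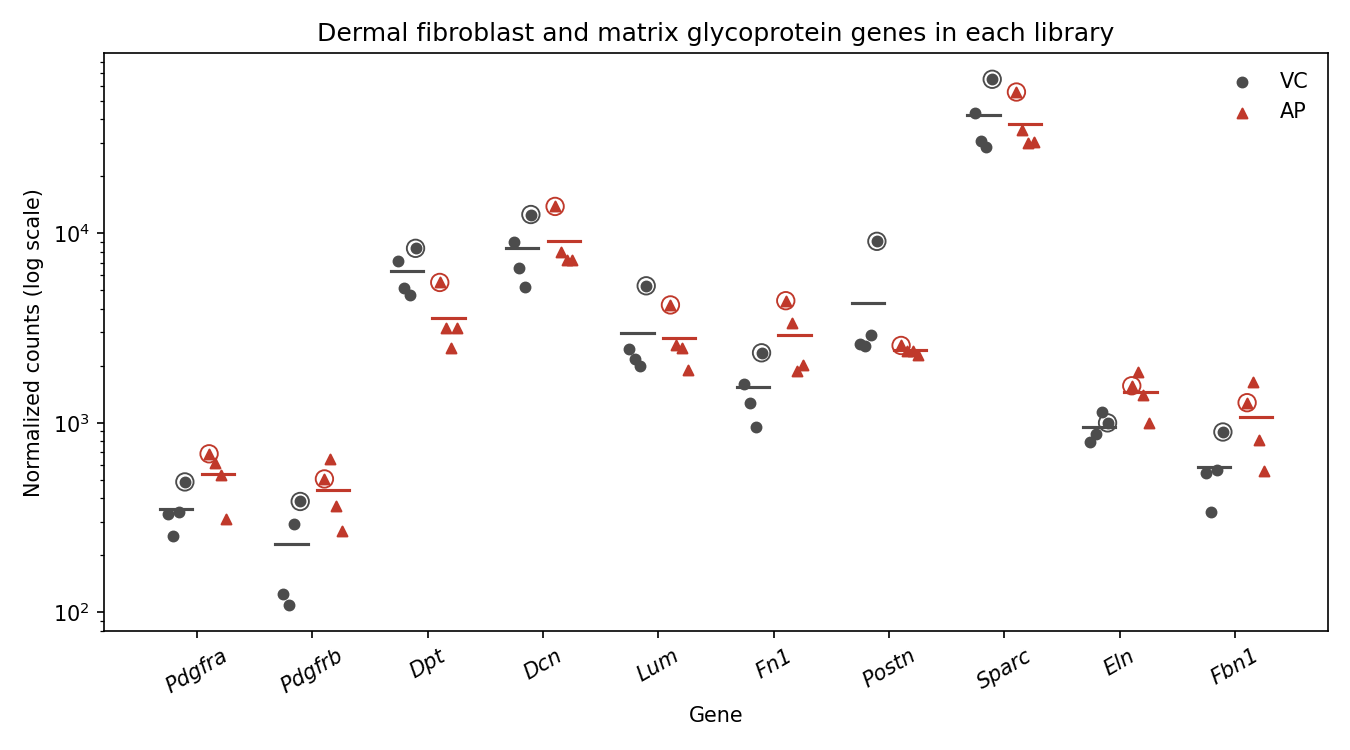
Normalized counts (log scale) of the 10 genes in each VC library (grey circles) and AP library (red triangles), with the group mean as a line and a ring around VC.4 and AP.1. The groups overlap in all 10 genes, and VC.4 is the highest VC library in 9 of them.

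Both PDGF receptor genes had higher means in the AP group, and neither passed the test over all genes. Pdgfra (ENSMUSG00000029231, chromosome 5 from 75152292 to 75198215 of mm10) was measured at 329, 251, 337 and 488 normalized counts from VC.1 through VC.4, and at 686, 613, 533 and 309 from AP.1 through AP.4. AP.1, AP.2 and AP.3 lay above all VC libraries, and AP.4 lay within their range. The means were 351 ± 98.7 normalized counts for VC and 535 ± 163 for AP (SD, n = 4 each), and the log2 fold change was 0.59 (standard error 0.27, 95% confidence interval 0.0033 to 1.17, adjusted p = 0.163 from limma). Pdgfrb (ENSMUSG00000024620, chromosome 18 from 61045150 to 61085061) was measured at 126, 109, 292 and 384 normalized counts from VC.1 through VC.4, and at 506, 641, 364 and 268 from AP.1 through AP.4. VC.1 and VC.2 were low beside VC.3 and VC.4, and AP.3 and AP.4 fell within the range of the VC libraries. The means were 228 ± 133 normalized counts for VC and 444 ± 163 for AP (SD, n = 4 each). With a log2 fold change of 1.08 (standard error 0.40, 95% confidence interval 0.20 to 1.97, adjusted p = 0.0989 from limma), it was the gene with the highest fold change of the 10 by limma, except without VC.1 or VC.2, where Fn1 was above it (0.96 and 0.85, against 0.87 and 0.80). Without VC.4 the log2 fold change reached 1.40, at an adjusted p of 0.0498, and the alternatives gave adjusted p-values of 0.00362 (total reads) to 0.240.

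Pdgfrb is also expressed by pericytes, and some markers of vessel wall cells were higher in the AP group. Of 7 pericyte markers, none at 0, Notch3 and Kcnj8 were higher, and the list summed to 1268, 1116, 1529 and 1594 normalized counts from VC.1 through VC.4, and 2417, 3959, 2075 and 1822 from AP.1 through AP.4. Notch3, a receptor of mural cells, had a log2 fold change of 1.93 (adjusted p = 0.00684, standard error 0.29) and was called with every library left out in turn. The call of Kcnj8, a potassium channel subunit, was at an adjusted p of 0.0496 (0.00201 to 0.108 over its alternatives) and was lost without VC.1, VC.2, VC.3, AP.1, AP.2, AP.3 or AP.4, with 0.0753 as the lowest and 0.108 as the highest adjusted p. Rgs5, the most abundant of the list over both groups but below Notch3 in the AP mean, had a log2 fold change of 0.60 (adjusted p = 0.288, standard error 0.36). Of 7 smooth muscle markers, led by Des, Myh11, Acta2 and Actg2 were higher, with Myh11, the smooth muscle myosin, at 2.76 (adjusted p = 0.00231, standard error 0.30). Des, which skeletal muscle expresses as well, had a log2 fold change of -1.33 (adjusted p = 0.105, standard error 0.50), and -1.94 without AP.1 (adjusted p = 0.00291; 0.00291 to 0.437 over its alternatives). These 7 markers summed to 4191, 6743, 4823 and 5310.1 normalized counts from VC.1 through VC.4, and 8512, 6929.6, 3196 and 4570.4 from AP.1 through AP.4, and the number called was 1 without AP.2, AP.4, VC.1 or VC.2. Of 7 endothelial markers, Pecam1 and Cdh5 were higher, with Pecam1 at 1.44 (adjusted p = 0.0198, standard error 0.31). DESeq2 called 5 of the 7, beside 17.4% of all genes with an adjusted p, and edgeR and limma-voom called 2 each. The endothelial sum was 1113, 1191, 2101 and 2016 normalized counts from VC.1 through VC.4, and 3281, 7489, 2576 and 3101 from AP.1 through AP.4. It was highest in AP.2, which was also the highest AP library for Pdgfrb, Eln and Fbn1. The number of endothelial markers called was 1 without AP.2, AP.3, AP.4, VC.1 or VC.2 and 4 without VC.4. With total reads, 6 pericyte, 6 smooth muscle and 7 endothelial markers were called, beside 8717 of all 15964 genes. The part of vessel wall cells in the level of Pdgfrb was not tested.

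Among the 4 PDGF ligand genes, 1 was higher and none lower (median log2 fold change 0.55). With total reads the median was 1.40 and 4 were called, beside 8717 of all 15964 genes. Pdgfb, whose product binds both receptors, was measured at 72.8, 59.1, 147 and 144 normalized counts from VC.1 through VC.4, and at 166, 391, 230.2 and 268 from AP.1 through AP.4. All 4 AP libraries lay above the VC libraries, and the log2 fold change was 1.35 (adjusted p = 0.0342, standard error 0.35). The adjusted p of Pdgfb was 0.0782 without VC.1, 0.0616 without VC.2, 0.0946 without AP.2, 0.0859 without AP.3 and 0.0885 without AP.4, and it ranged from 0.00132 to 0.0946 over all alternatives. Pdgfa, the most abundant ligand gene over both groups but below Pdgfb in the AP mean, had 217 ± 44.3 normalized counts for VC and 203 ± 22.1 for AP (SD, n = 4 each). Its log2 fold change was -0.076 (adjusted p = 0.821, standard error 0.20), above 0 without VC.1 or VC.3 (0.0051 and 0.0098), with the length trend removed and with total reads.

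Dpt, which encodes dermatopontin, had the lowest fold change of the 10 genes by limma. Postn was below it with DESeq2 (-0.83 against -0.82), with edgeR (-0.84 against -0.83) and with the length trend removed (-0.84 against -0.70). With the trend taken on the principal transcript instead of the longest, Postn was not below Dpt (-0.711 against -0.716). Dpt was measured at 7151, 5157, 4729 and 8338 normalized counts from VC.1 through VC.4, and at 5508, 3181, 2496 and 3181 from AP.1 through AP.4 (ENSMUSG00000026574, chromosome 1 from 164796644 to 164824266). AP.2, AP.3 and AP.4 lay below every VC library, and AP.1 lay within the VC range. The means were 6344 ± 1698 normalized counts for VC and 3591 ± 1318 for AP (SD, n = 4 each), and the log2 fold change was -0.85 (standard error 0.27, 95% confidence interval -1.44 to -0.26, adjusted p = 0.0644 from limma). Without AP.1 it was -1.07, at an adjusted p of 0.0194, and the alternatives gave adjusted p-values of 0.0194 to 0.929. DESeq2 gave -0.82 (adjusted p = 0.0315). With total reads, which moved the median of all genes as well, the log2 fold change of Dpt was 0.025.

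The proteoglycan genes Dcn and Lum had log2 fold changes whose intervals included 0. Dcn (ENSMUSG00000019929, chromosome 10 from 97479609 to 97518143) was measured at 9013, 6579, 5219 and 12578 normalized counts from VC.1 through VC.4, and at 13877, 8015, 7250.0 and 7258 from AP.1 through AP.4. VC.4 and AP.1 were the highest libraries of their groups, and AP.1 alone lay above the VC range. The means were 8347 ± 3228 normalized counts for VC and 9099.8 ± 3205 for AP (SD, n = 4 each), and the log2 fold change was 0.15 (standard error 0.31, 95% confidence interval -0.54 to 0.83, adjusted p = 0.784 from limma). It was -0.075 without AP.1 and -0.052 without VC.3. Lum (ENSMUSG00000036446, chromosome 10 from 97565128 to 97572703), the neighbour of Dcn on chromosome 10, was measured at 2454, 2162, 1991 and 5288 normalized counts from VC.1 through VC.4, and at 4191, 2586, 2497 and 1909 from AP.1 through AP.4. The 8 libraries were mixed in order, with VC.4 the highest and AP.4 the lowest. Group means of Lum were 2974 ± 1554 normalized counts for VC and 2796 ± 977 for AP (SD, n = 4 each), and its log2 fold change was -0.028 (standard error 0.32, 95% confidence interval -0.73 to 0.67, adjusted p = 0.963 from limma). It was 0.29 without VC.4, 0.14 without AP.4 and 0.0060 without AP.3, and 0.84 with total reads and 0.012 when mitochondrial reads were left out of the total. Each library held between 2.38 and 3.80 reads of Dcn per read of Lum.

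None of the 9 other small leucine-rich proteoglycan genes was called by limma, edgeR or limma-voom, 4 had an unadjusted p under 0.05, and DESeq2 called 1. Their median log2 fold change was -0.14 (0.73 with total reads, where 4 were called beside 8717 of all 15964 genes). Without AP.1, 1 of the 9 was called. Biglycan (Bgn), the most abundant of them, was measured at 5399, 3511, 3444 and 8243 normalized counts from VC.1 through VC.4, and at 3542, 3628, 2441 and 2099 from AP.1 through AP.4. VC.4 and VC.1 were its highest libraries, and the AP libraries overlapped with VC.2 and VC.3. Its log2 fold change was -0.76 (adjusted p = 0.113, standard error 0.30), and 0.11 with total reads.

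Fn1 (fibronectin, ENSMUSG00000026193, chromosome 1 from 71585520 to 71653200) was measured at 1606, 1277, 945 and 2342 normalized counts from VC.1 through VC.4, and at 4413, 3372, 1881 and 2025 from AP.1 through AP.4. AP.1 and AP.2 lay above all VC libraries, while AP.3 and AP.4 lay below VC.4. The means were 1542 ± 597 normalized counts for VC and 2922 ± 1199 for AP (SD, n = 4 each), and the log2 fold change was 0.91 (standard error 0.32, 95% confidence interval 0.21 to 1.61, adjusted p = 0.0843 from limma). DESeq2 gave 0.92, at an adjusted p of 0.0455. The alternatives gave adjusted p-values of 9.11e-04 (total reads, which called 8717 of all 15964 genes) to 0.492.

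Postn (periostin, ENSMUSG00000027750, chromosome 3 from 54361109 to 54391037) was set apart by a single library. It was measured at 2612, 2537, 2914 and 9079 normalized counts from VC.1 through VC.4, and at 2560.2, 2397, 2399 and 2289 from AP.1 through AP.4. The AP libraries and VC.1, VC.2 and VC.3 lay close together, and VC.4 stood far above all of them. The means were 4286 ± 3199.7 normalized counts for VC and 2411 ± 112 for AP (SD, n = 4 each). The log2 fold change was -0.59 (standard error 0.35, 95% confidence interval -1.36 to 0.17, adjusted p = 0.271 from limma). Without VC.4 it was -0.16 (adjusted p = 0.514; 0.123 to 0.514 over all alternatives), and with total reads it was 0.28.

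Sparc (ENSMUSG00000018593, chromosome 11 from 55394500 to 55423183) was the most abundant of the 10 genes and held 59.2% to 63.7% of their reads in each library. It was measured at 43234, 30672, 28631 and 65080.0 normalized counts from VC.1 through VC.4, and at 55738, 35301, 30149 and 30526 from AP.1 through AP.4. All AP libraries lay within the range of the VC libraries. The means were 41904 ± 16745 normalized counts for VC and 37929 ± 12102 for AP (SD, n = 4 each), and the log2 fold change was -0.11 (standard error 0.41, 95% confidence interval -1.01 to 0.79, adjusted p = 0.879 from limma). It was 0.13 without VC.4 and 0.76 with total reads.

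Of 25 other matricellular and adhesive glycoprotein genes, 4 were higher in the AP group and none was lower (median log2 fold change 0.31). DESeq2 called 6, beside 17.4% of all genes with an adjusted p. By limma, 1 was called without AP.2, AP.3, VC.1 or VC.2. With total reads 19 of the 25 were called, beside 8717 of all 15964 genes. The median of the 25 was then 1.18, beside 0.90 over all genes. Ccn1 encodes a matricellular protein that is induced as an immediate early gene. Its log2 fold change was 1.45 (adjusted p = 0.0344, standard error 0.37). Tnxb encodes tenascin-X, which binds collagen fibrils and whose deficiency causes a form of Ehlers-Danlos syndrome. It was measured at 744, 669, 845 and 1106 normalized counts from VC.1 through VC.4, and at 3911, 2490.5, 1557 and 1533 from AP.1 through AP.4, with all AP libraries above the VC libraries and a log2 fold change of 1.41 (adjusted p = 0.0172, standard error 0.29). Sparcl1 encodes a relative of SPARC. It had 567 ± 202 normalized counts for VC and 1380.3 ± 695 for AP (SD, n = 4 each) and a log2 fold change of 1.24 (adjusted p = 0.0342, standard error 0.32). Thbs1 encodes thrombospondin-1, and its log2 fold change was 1.07 (adjusted p = 0.0339, standard error 0.27). The call of Tnxb was kept with every library left out, and with the length trend removed its log2 fold change was 0.86 (adjusted p = 0.112; 1.67e-04 to 0.116 over all alternatives). The adjusted p of Ccn1 was 0.0549 without VC.1, 0.0564 without VC.2, 0.0546 without VC.4, 0.0527 without AP.1, 0.0744 without AP.2 and 0.0947 without AP.3 (0.00107 to 0.0947 over all alternatives). That of Sparcl1 was 0.0827 without VC.1, 0.0666 without VC.2, 0.0712 without AP.2, 0.0580 without AP.3 and 0.0690 without AP.4 (0.00106 to 0.0888). That of Thbs1 was 0.0770 without VC.1, 0.0523 without VC.2, 0.0666 without VC.4, 0.0713 without AP.2, 0.0922 without AP.3 and 0.0517 without AP.4 (0.00137 to 0.0930), and with the length trend removed its log2 fold change was 0.76 (adjusted p = 0.0820). Igfbp7, the most abundant of the list over both groups but below Tgfbi in the VC mean, had a log2 fold change of 0.47 (adjusted p = 0.273, standard error 0.28).

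Fibronectin and periostin are bound by integrins, of whose 8 subunit genes 2 were higher in the AP group (median log2 fold change 0.61). With total reads the median was 1.47 and 6 were called, beside 8717 of all 15964 genes. Itgav, the alpha v subunit, was measured at 65.5, 171, 246 and 144 normalized counts from VC.1 through VC.4, and at 324, 339.7, 381 and 319 from AP.1 through AP.4. Every AP library lay above every VC library, and the log2 fold change was 1.26 (adjusted p = 0.0352, standard error 0.33). Its adjusted p was 0.0613 without VC.4, 0.0820 without AP.2, 0.104 without AP.3 and 0.0812 without AP.4 (0.00202 to 0.112 over all alternatives). Itgb1, the beta 1 subunit and the most abundant of the 8, had 1335 ± 318 normalized counts for VC and 2103 ± 320.1 for AP (SD, n = 4 each) and a log2 fold change of 0.67 (adjusted p = 0.0433, standard error 0.19). Its groups did not overlap either. The call held only without VC.4 when 1 library was left out, and the adjusted p was 0.0960 without VC.1, 0.0768 without VC.2, 0.0748 without VC.3, 0.0544 without AP.1, 0.116 without AP.2, 0.101 without AP.3 and 0.0837 without AP.4 (5.81e-04 to 0.116 over all alternatives). With the length trend removed, neither gene was called (adjusted p = 0.0963 and 0.0787). Basal keratinocytes, 4 of whose 8 markers were higher, express Itgb1 as well, and their part in its level was not tested.

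Both elastic fibre genes had higher means in the AP group without passing the test over all genes. Eln (elastin, ENSMUSG00000029675, chromosome 5 from 134702593 to 134747323) was measured at 791, 875, 1136 and 999 normalized counts from VC.1 through VC.4, and at 1569, 1845, 1406 and 992 from AP.1 through AP.4. AP.1, AP.2 and AP.3 lay above all VC libraries, and AP.4 lay below VC.4 and VC.3. The means were 950.4 ± 150.4 normalized counts for VC and 1453 ± 357 for AP (SD, n = 4 each), and the log2 fold change was 0.59 (standard error 0.20, 95% confidence interval 0.15 to 1.03, adjusted p = 0.0781 from limma). DESeq2 gave an adjusted p of 0.0438 (0.00145 to 0.213 over all alternatives, the lowest with total reads). Eln was the one gene of the 10 in which VC.4 was not the highest VC library. Fbn1 (fibrillin-1, ENSMUSG00000027204, chromosome 2 from 125300594 to 125507993) was measured at 542, 338, 567 and 894 normalized counts from VC.1 through VC.4, and at 1277, 1642, 814 and 555 from AP.1 through AP.4. AP.2 and AP.1 were above the VC range, and AP.3 and AP.4 within it. Its means were 585 ± 230.0 normalized counts for VC and 1072 ± 484 for AP (SD, n = 4 each), with a log2 fold change of 0.84 (standard error 0.35, 95% confidence interval 0.076 to 1.60, adjusted p = 0.132 from limma).

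Of 18 other elastic fibre and microfibril genes, 1 was higher and 1 was lower (median log2 fold change 0.097). With total reads the median was 0.97 and 12 were called, beside 8717 of all 15964 genes. The median was -0.086 without AP.1, -0.041 without VC.3, 0.235 without AP.4 and -0.135 with the length trend removed. Ltbp4, a binding protein of latent TGF-beta that takes part in elastic fibre assembly, was measured at 724, 715, 1139 and 566 normalized counts from VC.1 through VC.4, and at 2039, 3448, 1815 and 1824 from AP.1 through AP.4. No VC library reached the lowest AP library, the log2 fold change was 1.53 (adjusted p = 0.00896, standard error 0.25), and the call was kept with each library left out. Efemp2, or fibulin-4, which helps lysyl oxidase to crosslink elastin, was measured at 440.2, 415, 438 and 788 normalized counts from VC.1 through VC.4, and at 331, 279.8, 165 and 185 from AP.1 through AP.4. Every AP library lay below every VC library, with a log2 fold change of -1.12 (adjusted p = 0.0284, standard error 0.27). The adjusted p of Efemp2 was 0.0511 without VC.1, 0.0519 without VC.4, 0.0519 without AP.2, 0.0914 without AP.3 and 0.0816 without AP.4, and it ranged from 0.00443 to 0.444 over all alternatives. Fbln2, the most abundant of the list over both groups but below Ltbp4 in every AP library, had a log2 fold change of 0.14 (adjusted p = 0.816, standard error 0.35), which was below 0 without AP.2, VC.1 or VC.2 and with the length trend removed.

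**Figure D2:**
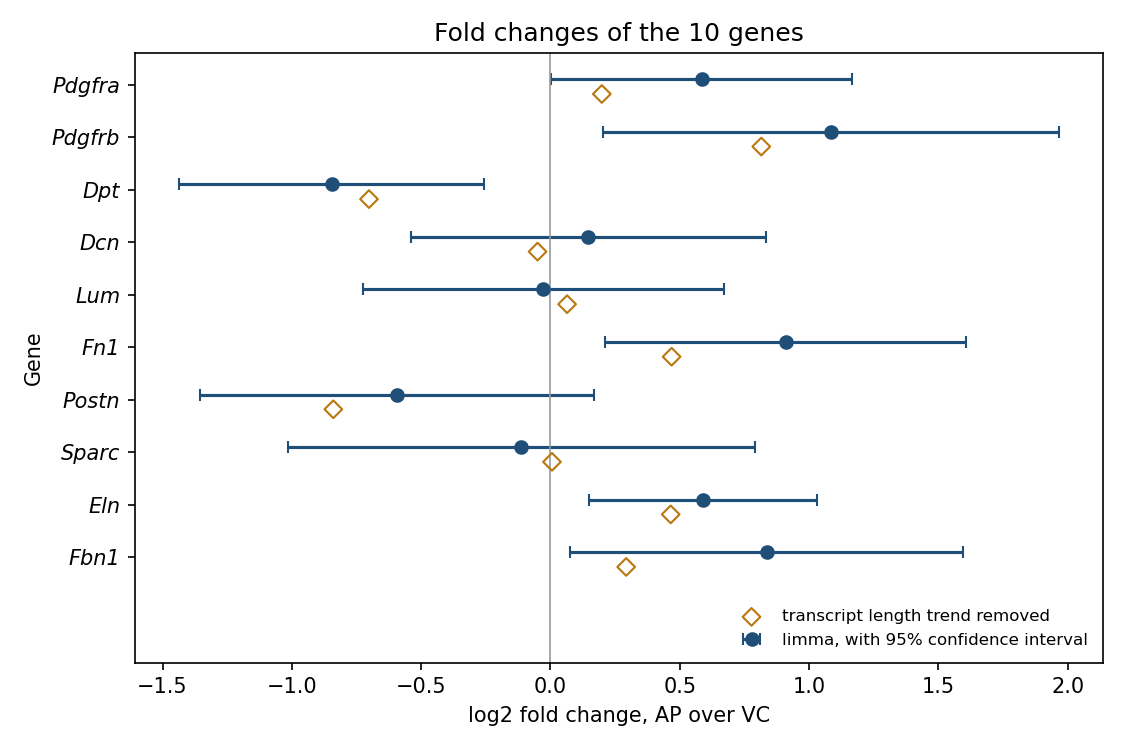
log2 fold change (AP over VC) of the 10 genes with its 95% confidence interval from limma (filled circles), and the log2 fold change once the trend on transcript length was removed (open diamonds). Removing the trend moved Fbn1 from 0.84 to 0.29 and Pdgfra from 0.59 to 0.20.

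The 10 genes span a wide range of transcript lengths, and the median fold change was higher among genes with longer transcripts. Genes with a mean of at least 50 normalized counts were ordered by longest transcript into 5 groups of 2251. From the shortest to the longest group, the median log2 fold change was -0.33, -0.14, 0.030, 0.17 and 0.40. The principal transcripts of Dpt and Dcn measured 1724 and 1758 nt, against 8315 nt for Fn1 and 11971 nt for Fbn1. With the length trend removed, the log2 fold change was 0.20 for Pdgfra, 0.82 for Pdgfrb, 0.47 for Fn1, 0.47 for Eln and 0.29 for Fbn1. It was -0.70 for Dpt, -0.84 for Postn, -0.050 for Dcn, 0.065 for Lum and 0.0061 for Sparc. Dcn has a longest transcript of 4692 nt, and with the trend taken on the principal transcript its log2 fold change was 0.27. None of the 10 genes was called by limma with either length. The part of transcript length in the fold changes was not tested beyond this removal.

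The collagen genes of the dermis, whose products form the bulk of its matrix, gave no call with the authors' scaling. None of 10 genes passed by limma, DESeq2, edgeR or limma-voom, and none had an unadjusted p under 0.05 (median log2 fold change 0.23). With total reads, 8 of the 10 were called and the median was 1.10, beside 8717 of all 15964 genes and a median of 0.90. The median was -0.165 with the length trend removed, 0.039 without VC.2 and 0.536 without VC.4. Col1a1, the most abundant over both groups but below Col3a1 in the VC mean, was measured at 35906, 21330.1, 22433 and 67062 normalized counts from VC.1 through VC.4, and at 84986, 64584, 43794 and 27508 from AP.1 through AP.4, highest in AP.1, followed by VC.4. Its log2 fold change was 0.63 (adjusted p = 0.428, standard error 0.51), and Col1a2 and Col3a1 gave 0.57 (adjusted p = 0.439, standard error 0.47) and 0.41 (adjusted p = 0.580, standard error 0.46). The groups overlapped in all 3 genes.

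Of 22 other dermal fibroblast markers, 2 were higher and 1 was lower (median log2 fold change -0.053). With total reads the median was 0.82 and 11 were called, beside 8717 of all 15964 genes. DESeq2 called 7, beside 17.4% of all genes with an adjusted p, and edgeR and limma-voom called 5 each. The median was 0.010 without AP.3, 0.044 without AP.4, 0.081 without VC.4 and 0.048 with the length trend removed, and -0.22 without AP.1. Ackr3, a scavenging chemokine receptor, was measured at 91.0, 70.9, 107 and 131 normalized counts from VC.1 through VC.4, and at 424, 236, 229.7 and 303 from AP.1 through AP.4, with a log2 fold change of 1.56 (adjusted p = 0.00896, standard error 0.26). Lrig1, a receptor tyrosine kinase regulator found in papillary fibroblasts and in follicle stem cells, was measured at 273, 464, 391 and 362 normalized counts from VC.1 through VC.4, and at 769.5, 762, 975 and 714 from AP.1 through AP.4, with a log2 fold change of 1.13 (adjusted p = 0.00896, standard error 0.18). In both genes every AP library lay above every VC library, and the calls were kept with each library left out. Cygb, the globin of fibroblasts, had 1061 ± 165 normalized counts for VC and 536 ± 305 for AP (SD, n = 4 each) and a log2 fold change of -1.12 (adjusted p = 0.0406, standard error 0.31). AP.1, at 979.9, lay within its VC range, and without AP.1 the adjusted p was 0.00269. It was 0.0864 without VC.1, 0.0539 without VC.2, 0.0593 without VC.3, 0.0818 without VC.4, 0.0966 without AP.2, 0.113 without AP.3 and 0.101 without AP.4, 0.0582 with the length trend removed and 0.00269 to 0.466 over all alternatives. Gsn and Vim, the most abundant of the list, had log2 fold changes of 0.65 (adjusted p = 0.222, standard error 0.34) and -0.44 (adjusted p = 0.333, standard error 0.29), the latter 0.43 with total reads. Of the 22, 8 were called without AP.1, 4 without VC.2 and 2 with any other single library left out.

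The libraries with high and low values recurred across the 10 genes. VC.4 was the highest VC library in 9 genes, and the lowest was VC.3 in 5, VC.2 in 4 and VC.1 in 1. AP.1 was the highest AP library in 7 genes and AP.2 in 3, while the lowest was AP.4 in 6 and AP.3 in 4. Together the genes took 1.12, 0.899, 0.913 and 1.83% of the reads outside mitochondrial genes from VC.1 through VC.4 and 1.65, 1.10, 0.943 and 0.868% from AP.1 through AP.4. Without both VC.4 and AP.1, a setting chosen after seeing the data, the log2 fold change of Dpt was -0.93 (adjusted p = 0.0373; 0.0194 to 0.929 over all alternatives) and that of Pdgfrb 1.31 (adjusted p = 0.0727; 0.00362 to 0.240). Dpt was then the 1 gene of the 10 called, beside 1528 calls among all 16064 genes tested in that setting.

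**Figure D3:**
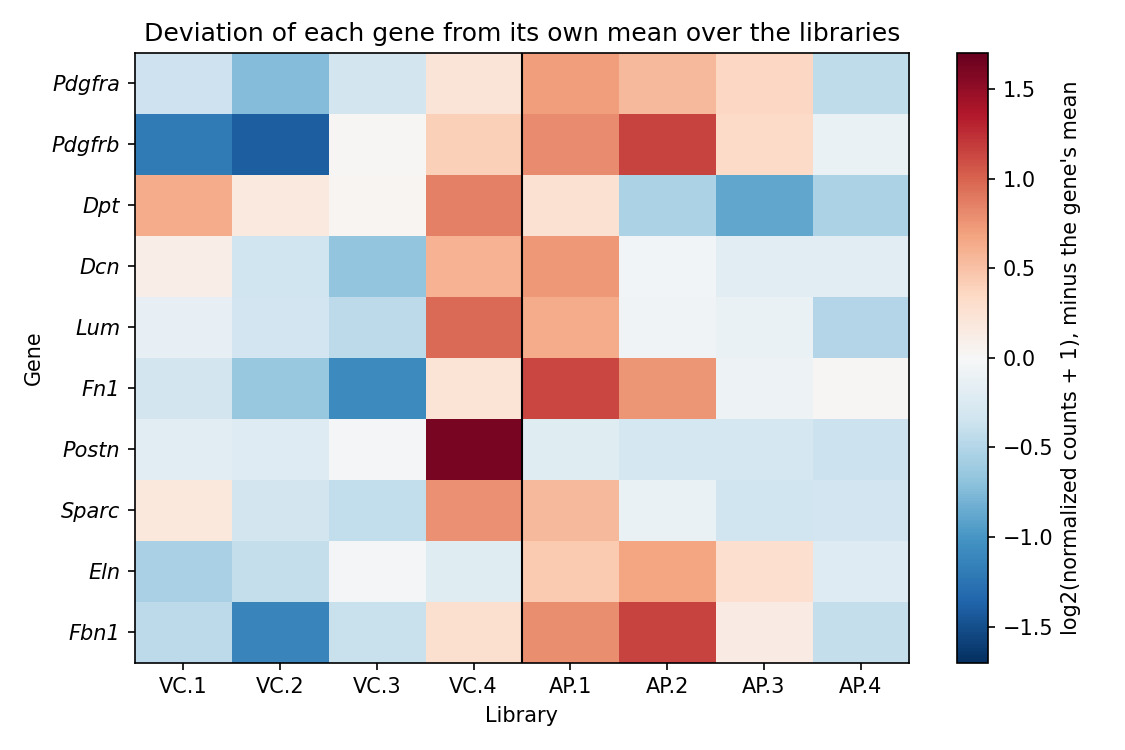
Deviation of each gene's log2(normalized counts + 1) from its mean over the 8 libraries, by library, with blue below and red above that mean and a line between the VC and AP libraries. VC.4 is the highest VC library for all genes but Eln, and AP.1 or AP.2 is the highest AP library for every gene.

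Profiles over the 8 libraries were compared by the root mean square distance between log2 values, each gene centred on its own mean. The closest pairs among the 10 genes were Dcn and Sparc (0.15), Lum and Sparc (0.17) and Dcn and Lum (0.21), followed by Pdgfra and Eln (0.26). The most distant pair was Pdgfrb and Dpt (1.16). The distance includes the group difference and is not scaled by how much a gene varies. The root mean square of a gene's own centred values was 0.42 for Sparc, 0.44 for Dcn and 0.49 for Lum. It was 0.57 for Dpt, and over the 10 genes it ran from 0.40 (Eln) to 0.84 (Pdgfrb). Among 11256 genes with a mean of at least 50 normalized counts, the genes most like Sparc were Fbln1 (0.13) and Tnfaip2 (0.13). Those most like Lum were Lox (0.11) and Mrc2 (0.13), and those most like Dcn were Otulinl (0.12) and Sestd1 (0.14). For Dpt they were Selenom (0.12) and Ccng1 (0.13), and for Postn Cd300c2 (0.14) and Ccn4 (0.20). For the receptors they were Abca9 (0.072) and Bmf (0.16) with Pdgfra, and Pear1 (0.25) and Ptprm (0.25) with Pdgfrb. Fn1 was closest to Cyp2f2 (0.18) and Ace (0.18), Eln to Eps8 (0.11) and Kif1b (0.13) and Fbn1 to Slc27a1 (0.16) and Ntrk2 (0.20). The median distance of the 11256 genes was 0.54 from Eln, the lowest of the 10, and 0.91 from Pdgfrb, the highest. These distances describe 8 libraries that share the differences of depth.

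To compare levels of the 10 genes with each other, normalized counts were divided by the length of the principal transcript in kilobases. In the VC group Sparc was highest, with 12448 to 28296 over the 4 libraries, and no other gene reached this range. Dcn (2969 to 7155) and Dpt (2743 to 4837) followed with ranges that overlapped, although Dcn was above Dpt within each VC library. Ranges also overlapped for Postn (796 to 2847) and Lum (813 to 2159.9), and Postn reached the range of Dpt only in VC.4. Eln (205 to 295) and Fn1 (114 to 282) overlapped at a lower level. Pdgfra (36.8 to 71.3), Fbn1 (28.3 to 74.7) and Pdgfrb (20.2 to 71.1) were lowest and could not be ordered. In the AP group Sparc again led (13108 to 24234), and Dcn (4124 to 7893) lay above Dpt (1448 to 3195) without overlap. Lum (779.8 to 1712) overlapped with Dpt and with Postn (718 to 803). Eln (257 to 479) and Fn1 (226 to 531) overlapped as well. Fbn1, Pdgfrb and Pdgfra overlapped at 45.2 to 137.

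RefSeq windows from 250 bases before to 50 bases after a gene start were matched by symbol for 5 of the 10 genes, Dpt, Postn, Pdgfra, Fbn1 and Sparc, and not for Pdgfrb, Dcn, Lum, Fn1 and Eln. The letters TATAAA, searched on both strands, were present in 4473 of 32851 such windows of 300 bases (13.6%). They occurred once in the window of Dpt and once in 1 of the 2 windows of Postn, on the strand of the gene, and in none of the other windows. The windows of Sparc and Fbn1 and the other window of Postn belong to RefSeq starts 3103, 1555 and 1842 bases from the GENCODE start of the gene. Dpt and Postn are also the genes with the lowest log2 fold changes of the 10 by limma (-0.85 and -0.59, neither called), and their windows are shown for this reason with TATAAA in capitals. The window of Dpt lies at chr1:164796413-164796712 on the plus strand of GRCm38.p6 and holds the GENCODE start of the gene at 164796644, and the letters fill its bases 263 to 268, after the RefSeq start. The window of Postn lies at chr3:54360857-54361156, also on the plus strand, and holds the GENCODE start at 54361109, and the letters fill its bases 225 to 230, before the RefSeq start. A match describes these letters only, and a link between them and the fold changes was not tested.
Dpt: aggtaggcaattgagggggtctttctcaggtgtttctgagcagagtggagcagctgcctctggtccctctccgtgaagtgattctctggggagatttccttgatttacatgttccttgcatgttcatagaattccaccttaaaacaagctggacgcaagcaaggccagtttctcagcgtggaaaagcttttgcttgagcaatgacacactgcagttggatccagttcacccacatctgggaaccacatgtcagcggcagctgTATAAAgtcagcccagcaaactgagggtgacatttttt
Postn: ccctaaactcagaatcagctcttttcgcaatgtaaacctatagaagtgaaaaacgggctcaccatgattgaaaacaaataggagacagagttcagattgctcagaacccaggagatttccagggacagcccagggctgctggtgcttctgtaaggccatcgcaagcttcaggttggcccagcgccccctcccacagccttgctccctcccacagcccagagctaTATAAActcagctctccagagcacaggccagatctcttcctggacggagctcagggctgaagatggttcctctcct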

How the data were processed

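Messenger RNA of dorsal dermis with hair follicles was sequenced in 4 VC and 4 AP libraries. The authors cleaned the reads, aligned them with STAR to mm10 and counted them per gene (featureCounts in the methods, HTSeq in the submitters' processing notes). Versions, annotation and strand setting are not given in the sources used here, so reads of a gene and of an antisense partner cannot be told apart. The deposited signal values are gene counts that the authors scaled with DESeq2 size factors. All 150160 values (100%) were whole multiples of 1 read within 0.1 read, so reads were recovered, on which edgeR called 1715 genes and DESeq2 3061. The table also holds 6 columns of the authors' own comparison (mean, fold change, its error, statistic, p and adjusted p), which were not used. Columns were mapped to groups and not to single samples.

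The main test was limma 3.58.1 (R 4.3.3, empirical Bayes with an intensity trend) with a pseudocount of 1 before taking log2. A gene was tested if 4 or more libraries held 3 or more normalized counts. Fold changes on this scale understate changes of low genes. The mitochondrial share was tested by exact permutation of the groups (70 assignments, two-sided). Alternatives were other pseudocounts, filters and scalings, limma without the trend, limma-voom, edgeR 4.0.16, DESeq2 1.42.0, the study's criteria, removal of a loess trend (span 0.3) on transcript length, and each library left out. The length of the principal transcript, and leaving out VC.4 and AP.1 together, were added after seeing the data. The steps were tested on simulated data. The members and lists were chosen with earlier results of these data known. From each list, up to 3 called genes per direction were named by size of change, then up to 3 of the most abundant. Thbs1, which falls outside this rule, and the cell type markers named were chosen after their values were seen. Results of some cell type markers are not reported here. Of the 18770 gene identifiers, 18766 were in GENCODE M21, used for coordinates and lengths. Depth was 6454563 to 11190113 reads per library.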

Additional observations from a re-analysis of the deposited data

Results flagged for a closer look

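In 3 of 60 groups of 4 libraries, 1 library lay far from the others on the log2 scale, and chance alone sets apart about 1 in 20 groups. The value given is the gap to the nearest library divided by the range of the group. For Postn in VC.4 it was 0.891, with 9079 normalized counts beside 2537 to 2914 in the other VC libraries. For Dcn in AP.1 it was 0.845, with 13877 normalized counts beside 7250.0 to 8015 in the other AP libraries. For the sum of the 4 PDGF ligand genes in VC.2 it was 0.891, with 356 normalized counts beside 471 to 488 in the other VC libraries. The cause was not tested.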

How the results depend on the processing

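Of 230 log2 fold changes of the 10 genes under the alternatives, 202 kept their direction and their side of the threshold, 12 passed the threshold with their direction kept and 16 changed sign, of which 2 also passed (Lum and Sparc with total reads). Among 942 of the other genes named, 758 kept both, 156 lost the call, 15 gained it with their direction kept and 13 changed sign, of which 1 also gained it (Pdgfa with total reads). With total reads, signs changed for Dpt (0.025), Lum (0.84), Postn (0.28), Sparc (0.76), Pdgfa (0.79), Bgn (0.11), Vim (0.43) and Hba-a2 (0.049), and with mitochondrial reads left out of the total for Lum (0.012). With the length trend removed they changed for Dcn (-0.050), Lum (0.065), Sparc (0.0061), Pdgfa (0.051) and Fbln2 (-0.063), and with the principal transcript's length for Lum (0.0055), Pdgfa (0.035) and Fbln2 (-0.13). With a library left out, log2 fold changes ran from -0.075 to 0.37 for Dcn, -0.24 to 0.29 for Lum, -0.31 to 0.13 for Sparc, -0.19 to 0.0098 for Pdgfa and -0.065 to 0.48 for Fbln2. That of Lum was 0.074 without VC.4 and AP.1. The number of the 10 genes called, 0 by limma, was 3 with DESeq2, 8 with total reads, 1 by the study's criteria, 1 without VC.4 and AP.1, and 0 to 1 with a library left out. The number of all genes called, 1650, was 3061 with DESeq2, 2169 by the study's criteria, 8717 with total reads, 592 without the intensity trend, 1096 with the length trend removed, 1013 with the principal transcript's length, 307 to 1873 with a library left out and 1438 to 1851 with the remaining settings. Without the intensity trend, Pdgfb, Efemp2, Tnxb, Ccn1, Sparcl1, Thbs1, Itgav, Itgb1, Cygb, Kcnj8, Acta2, Pecam1, Cdh5, Cd207, Hbb-bs, Tnnc2, Wif1, Alx4 and Rspo3 were not called. The mitochondrial share (AP minus VC) differed by -41.9 to -37.8 percentage points with a library left out. The cause was not tested. No paired analysis was possible because the treatments went to separate mice and no label pairs a mouse of a group with a mouse of the other. The 95% intervals of the 10 genes were 0.88 to 1.80 wide on the log2 scale, which limits the differences that 4 libraries a group can show.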
